A study of Bos taurus with 15 samples.

Results

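The ZNF genes are the genes whose bovine symbol reads ZNF and a number, with or without a final letter. They were chosen by symbol alone, and 207 of the 10832 genes in the filtered count table (1.91%) carried such a symbol. Genes without a matched symbol, such as ZNF606, could not be chosen (10709 of 10832 were matched). The measurements came from low-input total RNA-seq of pooled bovine day 7 blastocysts, each pool holding 8 to 14 embryos, with 5 libraries per treatment. Control embryos (Co) were produced in vitro and cultured without vesicles, FeEV embryos were cultured with fresh extracellular vesicles from the bovine oviduct (oEVs), and FoEV embryos with frozen oEVs. The paper's text says that fresh and frozen oEVs were split from material of the same oviducts. All embryos were produced by IVF, and no strain, sire or sex is given in the sources used here. The labels name the libraries as replicate pools without saying which pools shared an IVF session, so p-values measure the spread between these pools.

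Most ZNF genes encode C2H2 zinc finger proteins, in which tandem fingers read out short stretches of DNA. The largest subgroup in mammals adds a KRAB domain, which recruits the corepressor TRIM28 and with it histone methylation, and many of these proteins silence transposable elements during early development. Others bind RNA, serve as subunits of chromatin complexes or activate transcription, so the symbol marks a protein fold and not a single function. KRAB genes cluster in the genome and share long stretches of similar sequence, and reads of related copies could be split between them by the counting. The same could hold for related genes that are not clustered KRAB genes, such as ZNF518A and ZNF518B or the ZNF280 genes. This makes single values of such genes uncertain.

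Library totals ran from 2136713 to 4058887 reads, and the FoEV libraries were all deeper than the Co libraries. The embryos expressed trophectoderm, inner cell mass and hypoblast markers. The summed trophectoderm markers (10 listed, 9 in the filtered table) ran from 8171 to 11298 CPM in Co, from 8541 to 13028 CPM in FeEV and from 10425 to 14117 CPM in FoEV, and all 9 were higher in FoEV than in Co by group estimate, 4 of them at an unadjusted p under 0.05 (44.4%, against 8.18% of all genes higher). None of the 9 passed the adjusted threshold. The 4 were GATA2, GATA3, KRT8 and KRT18, while CDX2, TFAP2C and TEAD4 had no unadjusted p under 0.05. By mean CPM the trophectoderm sum was mostly KRT8, KRT18 and PTGS2. The trophectoderm, inner cell mass and hypoblast sums each overlapped between all treatments. Among the 4 inner cell mass markers tested, NANOG had 80.4 ± 19.9 CPM in Co, 52.1 ± 13.2 CPM in FeEV and 45.0 ± 16.7 CPM in FoEV (SD, n = 5), with log2 fold changes of -0.84 ± 0.26 in FoEV against Co (adjusted p = 0.178, edgeR quasi-likelihood test) and -0.62 ± 0.26 in FeEV against Co (unadjusted p under 0.05 in both), while POU5F1, SOX2 and KLF4 had no unadjusted p under 0.05. Cumulus or granulosa markers summed to 106 to 307 CPM, by mean most of it HSD3B1 (157 CPM). CYP19A1, FSHR and STAR had means of 21.4, 8.71 and 5.30 CPM, and INHBA and PTX3 had 28 and 1 reads over all libraries. Oviduct epithelium markers summed to 4.83 to 14.2 CPM, most of it PAX8, while OVGP1, FOXJ1 and SCGB1D had 32, 13 and 1 reads over all libraries. The part of these marker levels and of depth in the ZNF results below was not tested, and in pooled embryos fewer cells of a type and less RNA per cell cannot be told apart.

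All 207 ZNF genes had reads in all 15 libraries, and 151 of them reached 4.73 CPM (read counts scaled to the library total alone) in every library, the lowest level that each filtered gene reached in at least 5 libraries. No ZNF gene reached this level in the libraries of 1 treatment only. A further 90 ZNF genes appeared only in the unfiltered table, where none exceeded 8.81 CPM in any library and 4 had no read. All CPM given from here on were scaled by TMM, which corrects library totals for differences in composition, and are not corrected for transcript length, so that levels of different genes are listed but not compared. The mean CPM of the ZNF genes ran from 4.19 to 339 with a median of 14.0, against a median of 27.9 over all genes tested. This amounted to a median of 44.2 reads per library and as few as 13.3 reads for the gene with the fewest. The highest mean CPM belonged to ZNF207, ZNF106 and ZNF638, which together took 16.9% of the CPM of all ZNF genes, followed by ZNF532, ZNF518A, ZNF518B, ZNF281 and ZNF217. These 8 genes held 27.3%, whereas the 69 genes under 10 CPM held 8.24%.

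ZNF207 encodes a kinetochore and spindle protein that binds BUB3, ZNF106 and ZNF638 encode RNA-binding nuclear proteins, and ZNF281 encodes a transcription factor of pluripotent cells. The coefficient of variation (CV) within treatments was 5.11% for ZNF638, 6.11% for ZNF655 and 7.01% for ZNF761, the lowest 3 values among the ZNF genes, and 56.5% for ZNF280C, 46.9% for ZNF398 and 41.9% for ZNF275, the highest 3. The median CV was 26.9% for the 69 ZNF genes under 10 CPM, 20.2% for 85 genes from 10 to 25 CPM, 16.9% for 28 genes from 25 to 50 CPM and 10.6% for 25 genes above. Over all genes the medians at the same levels were 30.7%, 20.5%, 15.5% and 11.9%. The ZNF genes thus varied about as much as other genes counted at the same level.

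The comparison of embryos grown with and without oEVs asks whether the vesicles altered the embryonic transcriptome. For the ZNF genes as a group, neither treatment with oEVs differed from Co by more than the SD within Co. The ZNF genes received 0.556 ± 0.0837% of the reads in Co (SD, n = 5 in each treatment). The share was 0.577 ± 0.0430% under fresh vesicles and 0.534 ± 0.0426% under frozen ones. The Co libraries ranged most widely, from 0.460% (95% exact Clopper-Pearson interval 0.452 to 0.468%) to 0.674% (0.664 to 0.684%), and these intervals cover counting error only. After TMM scaling the summed level was 5632 ± 414 CPM in Co, 5729 ± 240 CPM in FeEV and 5417 ± 340 CPM in FoEV. The treatments overlapped on both measures, and the differences between their means were smaller than the SD within Co, the widest of the treatments. Between FeEV and FoEV the means lay further apart than the SD within FeEV on both measures. No test was run on either measure.

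**Figure D1:**
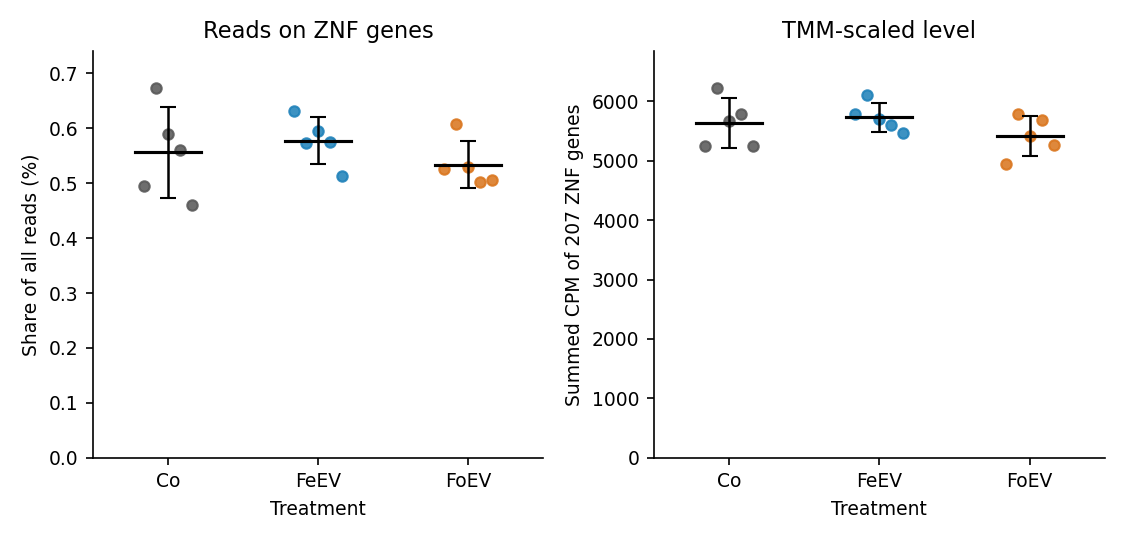
Share of all reads assigned to the 207 ZNF genes (left, in percent) and their summed TMM-scaled CPM (right) in each library of the Co, FeEV and FoEV treatments. Points are libraries, horizontal lines are means and bars are SD over 5 libraries, and the ranges of the 3 treatments overlap on both measures.

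Per gene, the median log2 fold change of the ZNF genes was -0.02 in FoEV against Co, 0.02 in FeEV against Co and -0.06 in FoEV against FeEV, where all genes tested had medians of 0.01, 0.00 and 0.01. These comparisons share libraries, so that they are not independent of each other. In FoEV against FeEV, 127 of the 207 ZNF genes had the lower estimate in FoEV and 80 the higher, against 5223 lower and 5609 higher among all genes. This count stayed between 121 and 134 lower under the alternatives that tested all 207 genes, the other scalings included, and between 116 and 133 when single libraries were left out. In FoEV against Co, 109 were lower and 98 higher, against 5167 lower and 5665 higher among all genes. In FeEV against Co, 89 were lower and 118 higher, against 5304 lower and 5528 higher among all genes. The median in FoEV against Co turned to 0.01 without Co 2 and to 0.03 without FoEV 1, the library with the lowest summed ZNF level, and that in FoEV against FeEV became -0.02 without it. The median in FeEV against Co was -0.00 without FeEV 2.

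**Figure D2:**
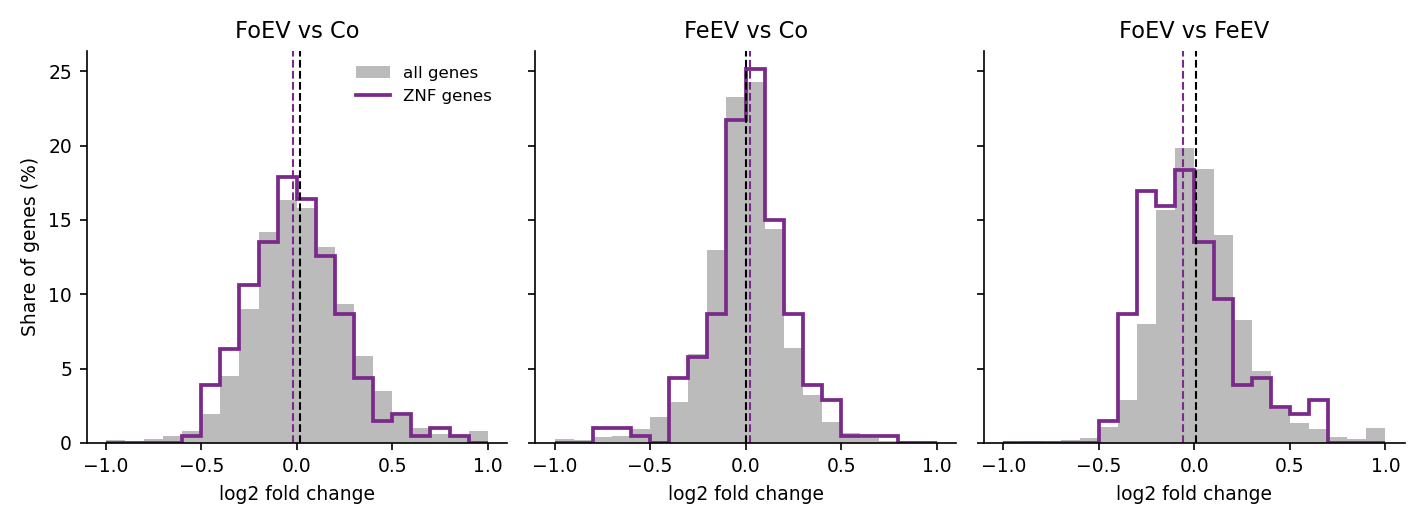
Distribution of log2 fold changes in the 3 comparisons as the share of genes (percent) in bins of 0.1, for all 10832 genes tested (grey) and the 207 ZNF genes (purple line). Values beyond 1 on either side stand in the outermost bins and dashed lines are medians; the ZNF medians lie at -0.02, 0.02 and -0.06, the last one to the left of the median of all genes, 0.01.

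The treatments were also ranked by the mean of each ZNF gene. FeEV had the highest mean for 77 ZNF genes (37.2%), against 26.8% of all genes, FoEV for 65 (31.4%), against 40.2%, and Co for 65 (31.4%), against 33.0%. FoEV had the lowest mean for 91 ZNF genes (44.0%), against 35.9% of all genes, FeEV for 43 (20.8%), against 28.0%, and Co for 73 (35.3%), against 36.1%. These shares describe the libraries at hand and carry no test.

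The level of a gene went along with its direction. Among the 138 ZNF genes with a mean of at least 10 CPM, 83 had the lower and 55 the higher estimate in FoEV against Co, and 93 the lower and 45 the higher in FoEV against FeEV. Among the 69 ZNF genes under 10 CPM, 26 had the lower and 43 the higher estimate in FoEV against Co, and 34 the lower and 35 the higher in FoEV against FeEV. All genes under 10 CPM were also more often higher in FoEV than in Co (60.6%), while those of at least 10 CPM divided evenly (50.2% higher). In FoEV against FeEV, 61.1% of all genes under 10 CPM were higher, against 50.7% of the ZNF genes of that level. Of those at 10 CPM or more, 49.4% were higher, against 32.6% of the ZNF genes. The median log2 fold change of the better counted ZNF genes was -0.06 in FoEV against Co and -0.09 in FoEV against FeEV, where all genes of that level had 0.00 and -0.00. Depth moves with treatment here as given above, and its part in the split by level was not tested.

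**Figure D3:**
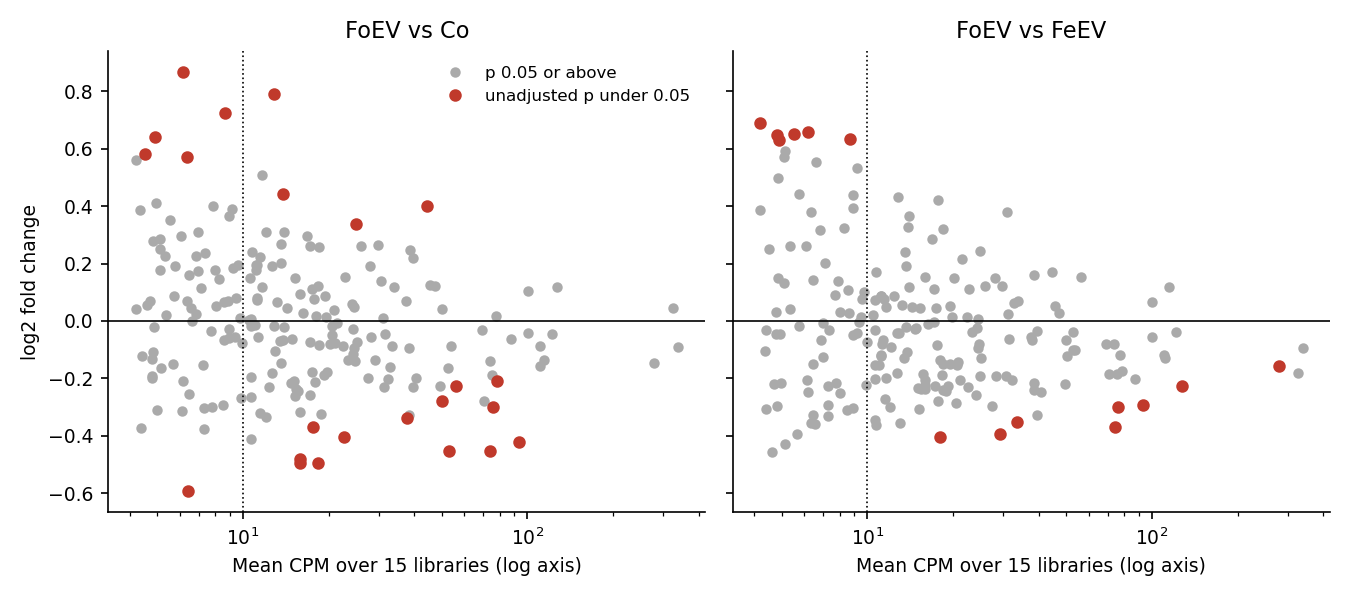
Log2 fold change of each of the 207 ZNF genes against its mean CPM over 15 libraries (log axis), for FoEV against Co (left) and FoEV against FeEV (right). Red points have an unadjusted p under 0.05 and the dotted line marks 10 CPM. The red points above 0 lie mostly left of the line, and in the right panel all 8 red points below 0 lie right of it. Under 10 CPM in that panel's comparison, 8.70% of the ZNF genes were higher and 0% lower at this p, against 5.73% and 1.53% of all genes. At 10 CPM or more the shares were 0% and 5.80%, against 4.60% and 4.25%.

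No ZNF gene passed an adjusted p under 0.05 in any of the 3 comparisons by edgeR's quasi-likelihood test with Benjamini-Hochberg adjustment over all 10832 genes, and the test called 0.00923% of all genes in FoEV against Co, 0% in FeEV against Co and 0% in FoEV against FeEV. The smallest adjusted p of a ZNF gene was 0.124, 0.766 and 0.486 in these comparisons, and a p that misses the threshold does not show that the levels were equal. At an unadjusted p under 0.05, FoEV against Co gave 9 ZNF genes higher (4.35% of 207, against 8.18% of all genes) and 14 lower (6.76%, against 6.88%). FeEV against Co gave 4 higher (1.93%, against 1.83% of all genes) and 7 lower (3.38%, against 2.32%), and FoEV against FeEV gave 6 higher (2.90%, against 4.83%) and 8 lower (3.86%, against 3.69%). These shares lay near those of all genes, apart from fewer genes higher in FoEV. Single libraries and blocks decided part of these counts. Without Co 2, FoEV against Co gave 15 genes, 8 higher and 7 lower, and with the library number of the sample descriptions as a block it gave 14. Without FeEV 5, FeEV against Co gave 7, and FoEV against FeEV gave 9 with the library number as a block. The Wald test of DESeq2 called 3 ZNF genes in FoEV against Co, where it called 1.7% of all genes with an adjusted p, and the edgeR likelihood ratio test with robust dispersions called 6 (ZNF292, ZNF414, ZNF568, ZNF654, ZNF703 and ZNF805), where it called 2.87%. With no filter on low counts the quasi-likelihood test called 4, where it called 0.679% of all genes. None of these called a ZNF gene in the other comparisons, where the shares of all genes were 0.00923%, 0.0554% and 0.051% in FeEV against Co and 0.0277%, 0.286% and 0.0864% in FoEV against FeEV, in the same order of methods.

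Complete separation of the 5 libraries of one treatment from the 5 of another was seen for few ZNF genes. In FoEV against Co it held for 4 higher and 3 lower ones, 3.38% of the ZNF genes. Among all genes it held for 2.6% there (1.26% higher and 1.35% lower). In FeEV against Co it held for 2 higher and 2 lower ZNF genes (1.93%), against 0.951% of all genes (0.535% higher and 0.415% lower). In FoEV against FeEV it held for 3 higher and 3 lower ZNF genes (2.9%), against 1.5% of all genes (0.757% higher and 0.748% lower). The ZNF shares were the larger in each comparison, which was not tested. The genes that lay apart or had the lowest p-values are described one by one, and none of them passed the adjusted threshold of the quasi-likelihood test.

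ZNF568 (gene 613546) had lower values with either kind of vesicle. It encodes a KRAB zinc finger protein whose mouse counterpart represses a placental transcript of Igf2. In detail, the 5 Co libraries held 20.4, 21.9, 21.0, 19.3 and 18.5 CPM, the FeEV libraries 12.2, 14.1, 14.1, 13.2 and 11.7 CPM and the FoEV libraries 12.5, 16.4, 17.6, 13.4 and 12.5 CPM. All 10 libraries with oEVs lay below all 5 Co libraries. The means were 20.2 ± 1.37 CPM in the controls (SD, n = 5), 13.1 ± 1.08 CPM with fresh and 14.5 ± 2.37 CPM with frozen vesicles, from 29 to 45 reads per FeEV library and 45 to 65 per Co library. The log2 fold change was -0.63 ± 0.15 (SE) in FeEV against Co (adjusted p = 0.766, edgeR quasi-likelihood test) and -0.48 ± 0.15 in FoEV against Co (adjusted p = 0.148), both against the same Co libraries. FeEV and FoEV differed by 0.15 ± 0.15 and overlapped.

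ZNF761 (gene 540020), which the reference also lists under the name ZNF845, showed the same order. Here the 5 Co libraries held 67.8, 69.2, 62.6, 57.4 and 64.0 CPM, the FeEV libraries 42.3, 51.2, 51.9, 49.2 and 52.2 CPM and the FoEV libraries 53.3, 56.5, 53.5, 59.1 and 52.3 CPM. The FeEV libraries lay below both other treatments, though the lowest FoEV library exceeded the highest FeEV library by little, and the FoEV libraries overlapped with Co. Its log2 fold change was -0.38 ± 0.10 in FeEV against Co (adjusted p = 0.903, quasi-likelihood test) and -0.23 ± 0.09 in FoEV against Co (adjusted p = 0.259). This gene was among the least variable ZNF genes within treatments.

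ZNF532 (gene 533847) was the member with the clearest higher level under fresh vesicles. Its protein is part of a chromatin reader complex with ZNF592, ZNF687 and ZMYND8. For this gene the 5 Co libraries held 115, 117, 106, 107 and 124 CPM, the FeEV libraries 141, 146, 148, 135 and 152 CPM and the FoEV libraries 105, 115, 124, 133 and 139.8 CPM. Each FeEV library exceeded each Co library, and the FoEV libraries spanned the range from Co to FeEV. The log2 fold change was 0.35 ± 0.09 in FeEV against Co (adjusted p = 0.903, quasi-likelihood test) and -0.23 ± 0.09 in FoEV against FeEV (adjusted p = 0.501). Its partners ZNF592 and ZNF687 had log2 fold changes of 0.18 ± 0.17 and 0.05 ± 0.20 in FeEV against Co.

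Several ZNF genes of moderate to high counts had lower estimates in FoEV. ZNF805 (gene 523461) had the smallest p in FoEV against Co, and the 5 Co libraries held 63.8, 97.2, 90.3, 99.5 and 63.2 CPM, the FeEV libraries 75.1, 85.8, 71.9, 82.9 and 76.5 CPM and the FoEV libraries 55.6, 68.6, 61.7, 58.1 and 58.9 CPM. The FoEV libraries lay below all FeEV libraries but overlapped with Co, in which 2 libraries stood near the FoEV values. On the log2 scale the difference was -0.45 ± 0.12 in FoEV against Co (adjusted p = 0.124, quasi-likelihood test) and -0.37 ± 0.12 in FoEV against FeEV (adjusted p = 0.486). With DESeq2 its adjusted p in FoEV against Co was 0.0420 and with no filter on low counts 0.0285.

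ZNF292 (gene 541264) encodes a large zinc finger protein whose gene is mutated in a human neurodevelopmental disorder. Of its values, the 5 Co libraries held 106, 116, 106, 114 and 82.5 CPM, the FeEV libraries 86.7, 101, 92.0, 107 and 93.3 CPM and the FoEV libraries 72.5, 101, 64.7, 82.1 and 71.2 CPM. One FoEV library, FoEV 2, stood at the level of the controls and the lowest control, Co 5, stood among the FoEV libraries. The log2 fold change was -0.42 ± 0.12 in FoEV against Co (adjusted p = 0.131, quasi-likelihood test), -0.29 ± 0.12 in FoEV against FeEV and -0.13 ± 0.12 in FeEV against Co. Without FoEV 2 it passed the threshold in FoEV against Co (log2 fold change -0.53, adjusted p = 0.0410, quasi-likelihood test), and it was also called by DESeq2 (adjusted p = 0.0461) and with no filter on low counts (adjusted p = 0.0358).

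ZNF654 (gene 100335242) had lower means with both kinds of vesicles, and the 5 Co libraries held 56.5, 54.3, 78.0, 70.2 and 56.2 CPM, the FeEV libraries 45.9, 47.2, 56.6, 48.3 and 49.4 CPM and the FoEV libraries 50.01, 55.2, 41.6, 36.7 and 46.3 CPM. The highest 2 controls, Co 3 and Co 4, exceeded all libraries with oEVs, while the other 3 controls overlapped with them. ZNF654 had a log2 fold change of -0.45 ± 0.13 in FoEV against Co (adjusted p = 0.131, quasi-likelihood test) and -0.35 ± 0.13 in FeEV against Co. DESeq2 called it (adjusted p = 0.0467), as did the test with no filter (adjusted p = 0.0477), both in FoEV against Co. Differences of the same sign at larger p-values in FoEV against Co were seen for ZNF507 (gene 540613) at -0.30 ± 0.12, ZNF112 (gene 538686) at -0.49 ± 0.19, ZNF432 (gene 539365) at -0.40 ± 0.16 with no overlap and ZNF148 (gene 613265) at -0.28 ± 0.11 with no overlap. ZNF148 encodes a factor that binds GC-rich promoters. ZNF432 was chosen for mention after its values were seen.

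Of the 9 genes with higher estimates in FoEV than in Co at an unadjusted p under 0.05, 5 stood under 10 CPM, against 1 of the 14 with lower estimates. These were 7.25% and 1.45% of the 69 ZNF genes of that level, near the 7.36% and 2.21% among all genes of that level. ZNF703 (gene 782419) encodes a transcriptional corepressor known from luminal breast cancer, and the 5 Co libraries held 6.20, 4.39, 4.84, 2.41 and 5.33 CPM, the FeEV libraries 5.66, 4.46, 5.32, 5.92 and 5.59 CPM and the FoEV libraries 10.9, 6.81, 7.71, 8.35 and 8.72 CPM. All FoEV libraries exceeded all libraries of the other treatments, on 25 to 47 reads per FoEV library, 6 to 17 per Co library and 12 to 20 per FeEV library. ZNF703 had a log2 fold change of 0.87 ± 0.24 in FoEV against Co (adjusted p = 0.131, quasi-likelihood test) and 0.66 ± 0.23 in FoEV against FeEV (adjusted p = 0.496).

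ZNF414 (gene 538455) had the same pattern, and the 5 Co libraries held 9.12, 5.74, 6.77, 4.01 and 9.44 CPM, the FeEV libraries 8.94, 5.57, 5.63, 6.38 and 10.3 CPM and the FoEV libraries 12.7, 11.9, 10.7, 12.02 and 10.6 CPM. Again the FoEV libraries exceeded all others, and Co and FeEV overlapped. Its log2 fold change was 0.73 ± 0.23 in FoEV against Co (adjusted p = 0.165, quasi-likelihood test) and 0.63 ± 0.23 in FoEV against FeEV. ZNF324 (gene 100847773) and ZNF576 (gene 616814) also lay apart in FoEV against Co, with log2 fold changes of 0.57 ± 0.22 and 0.58 ± 0.28 on 12 to 19 and 7 to 12 reads per Co library. ZNF576 was chosen for mention after its values were seen.

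ZNF75D (gene 100125581) had a higher mean in FoEV that rested on few libraries, and the 5 Co libraries held 7.66, 8.43, 11.6, 11.6 and 9.03 CPM, the FeEV libraries 12.2, 12.6, 13.8, 8.65 and 14.2 CPM and the FoEV libraries 26.6, 19.2, 13.2, 10.3 and 13.6 CPM. FoEV 1 and FoEV 2 stood above all other libraries and the other 3 lay within the span of the Co and FeEV libraries. The log2 fold change in FoEV against Co was 0.79 ± 0.23 (adjusted p = 0.140, quasi-likelihood test) and 0.55 without FoEV 1. It was called with no filter on low counts (adjusted p = 0.0411).

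ZNF335 (gene 535476) encodes a subunit of a histone H3 methyltransferase complex, and the 5 Co libraries held 46.7, 34.1, 36.4, 37.3 and 36.1 CPM, the FeEV libraries 46.8, 47.2, 45.0, 43.3 and 41.1 CPM and the FoEV libraries 54.4, 40.6, 49.0, 64.4 and 43.6 CPM. One control, Co 1, stood within the FoEV range, the other 4 below all FoEV libraries. On the log2 scale the difference was 0.40 ± 0.13 in FoEV against Co (adjusted p = 0.162, quasi-likelihood test) and 0.23 ± 0.13 in FeEV against Co.

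**Figure D4:**
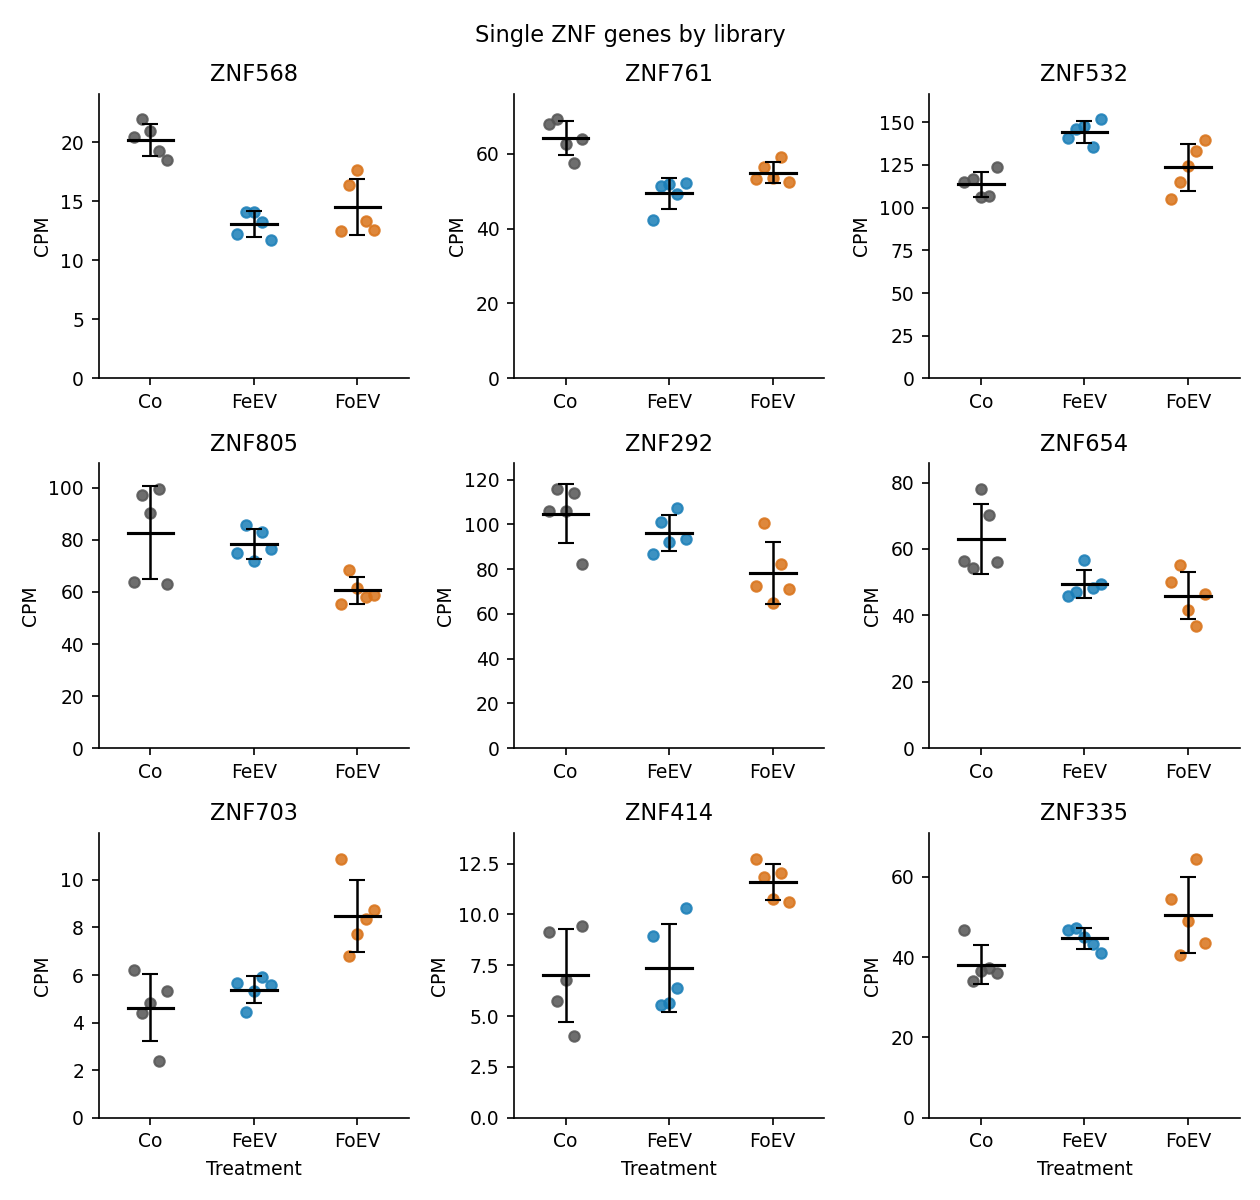
CPM of 9 ZNF genes in each library of the Co, FeEV and FoEV treatments, with each vertical axis starting at 0. Points are libraries, lines are means and bars are SD over 5 libraries; ZNF568 is lower in all libraries with oEVs than in any control, ZNF532 is higher in every FeEV library than in any control, and ZNF703 and ZNF414 are higher in every FoEV library than in any other.

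Further ZNF genes had an unadjusted p under 0.05 in FeEV against Co. ZNF274 (gene 534170), which recruits the methyltransferase SETDB1 to ZNF gene clusters, had 1.82, 5.40, 4.84, 3.61 and 5.33 CPM in Co and 6.85, 5.94, 6.88, 5.92 and 6.42 CPM in FeEV. These did not overlap, on 5 to 16 reads per Co library and 13 to 23 per FeEV library, and the log2 fold change was 0.61 ± 0.28. ZNF416 (gene 530973) had a log2 fold change of 0.71 ± 0.27, ZNF106 of 0.23 ± 0.11, ZNF518B of -0.25 ± 0.11, ZNF667 (gene 523322) of -0.64 ± 0.29, ZNF672 (gene 539058) of -0.75 ± 0.29 and ZNF711 (gene 526026), a partner of the histone demethylase PHF8, of -0.76 ± 0.32, and in each of these the libraries overlapped. No adjusted p of these genes was below the 0.766 of ZNF568.

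Between the vesicle treatments, ZNF35 (-0.39 ± 0.15), ZNF507 (-0.30 ± 0.12) and ZNF236 (-0.35 ± 0.14) had lower means in FoEV, and ZNF667 (0.69 ± 0.28), ZNF672 (0.65 ± 0.28), ZNF689 (0.65 ± 0.29) and ZNF346 (0.63 ± 0.29) had higher means (log2 fold change ± SE). The libraries of the 2 treatments overlapped for all 7. The genes with lower means stood at 29.2, 75.7 and 33.5 CPM over the 15 libraries and those with higher means at 4.21 to 5.53 CPM. Among all genes under 10 CPM, too, more were higher than lower at an unadjusted p under 0.05 (5.73% and 1.53%). ZNF274 and ZNF77, with log2 fold changes of -0.43 ± 0.26 and -0.35 ± 0.18, did not overlap and were lower in FoEV, at unadjusted p-values over 0.05. ZNF77 was chosen for mention after its values were seen.

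The most variable ZNF genes of at least 10 CPM were ZNF729, ZNF329, ZNF793 and ZNF75D, with CVs within treatments of 35.7%, 32.6%, 31.7% and 31.7%. ZNF729 held 5.10, 22.6, 15.5, 12.8 and 13.5 CPM in the 5 Co libraries, with Co 1 the lowest and Co 2 the highest of all 15 libraries. Its log2 fold change was -0.32 ± 0.29 in FeEV against Co, that of ZNF793 -0.36 ± 0.27 in FoEV against FeEV and that of ZNF329 0.35 ± 0.26 in FeEV against Co.

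By known role, the ZNF genes listed under RNA or ribosome handling (12 of 12 tested) had 7 higher and 5 lower estimates in FoEV against Co, with a median of 0.11. This list and the role lists below were made with earlier results of these data known. ZNF346, which binds double-stranded RNA, and ZNF593, a ribosome assembly factor, had unadjusted p under 0.05 there (16.7% of the 12, against 15.1% of all genes), at 0.64 ± 0.29 and 0.44 ± 0.21. The ribosome factors ZNF622 and ZNF598, the latter a ubiquitin ligase at collided ribosomes, were at 0.26 ± 0.13 and 0.25 ± 0.15. The highly counted ZNF207 and ZNF638 had -0.09 ± 0.09 and -0.15 ± 0.07. ZNF207 was counted in this list, though its description above names no such role. In FeEV against Co, 11 of the 12 had the higher estimate in FeEV (91.7%, against 51% of all genes), with a median of 0.08. Of these 1, ZNF106, had an unadjusted p under 0.05 (8.33% of the 12, against 4.15% of all genes). In FoEV against FeEV 5 were higher and 7 lower.

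A further list held 12 activators and other transcription factors or cofactors, some known from early embryos or stem cells, of which 9 were tested, and ZNF750, ZNF521 and ZNF423 were not in the filtered table. In FoEV against Co 3 were higher and 6 lower, with a median of -0.09, and ZNF703, known as a corepressor, and ZNF148 had unadjusted p under 0.05 (22.2%, against 15.1% of all genes). ZNF281 and ZNF217 stood at -0.09 ± 0.11 and -0.16 ± 0.10, ZNF143, an activator bound at many promoters, at -0.01 ± 0.16, and ZNF410, an activator of the CHD4 gene, at -0.16 ± 0.10. In FeEV against Co 3 were higher and 6 lower, none at an unadjusted p under 0.05, with ZNF296 at -0.37 ± 0.19. In FoEV against FeEV 3 were higher and 6 lower.

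The 12 ZNF genes listed under chromatin complexes and modifiers were all tested, a list made with earlier results of these data known. ZNF292 was counted in it, though its description above names no such role. In FoEV against Co 5 were higher and 7 lower, with a median of -0.09, and ZNF335, ZNF292 and ZNF451, a SUMO ligase at -0.21 ± 0.09, had unadjusted p under 0.05 (3 of 12, against 15.1% of all genes). In FeEV against Co 6 were higher and 6 lower, and ZNF532, ZNF518B and ZNF711 had unadjusted p under 0.05 (3 of 12, against 4.15% of all genes). ZNF644, which guides the methyltransferases EHMT1 and EHMT2, was at -0.16 ± 0.13 in FoEV against Co and -0.22 ± 0.13 in FeEV against Co.

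The proteins that carry out KRAB repression were measured beside their zinc finger partners, from a list of 26 genes that were all tested. TRIM28, the corepressor itself, had 223 ± 19.2 CPM in Co, 216 ± 18.0 CPM in FeEV and 231 ± 35.1 CPM in FoEV, a log2 fold change of 0.05 ± 0.10 in FoEV against Co. SETDB1, the partner methyltransferase, was at -0.10 ± 0.15. In FoEV against Co 14 of the 26 were higher and 12 lower, with a median of 0.03, and 4 lower ones, CBX5 (-0.31 ± 0.11), CBX3 (-0.20 ± 0.10), HDAC2 (-0.31 ± 0.12) and MORC3 (-0.31 ± 0.11), had unadjusted p under 0.05 (15.4% of the 26, against 15.1% of all genes). CBX3 and CBX5 encode HP1 proteins that bind methylated histone H3, and HDAC2 a histone deacetylase. In FeEV against Co 13 were higher and 13 lower, and the DNA methyltransferase DNMT3B (0.35 ± 0.10) had an unadjusted p under 0.05 (3.85%, against 4.15% of all genes). None of the 26 passed the adjusted threshold of the quasi-likelihood test in any comparison.

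Related gene families were counted in the same way in FoEV against FeEV. Of the ZFP genes 11 of 13 were lower, of the ZSCAN genes 6 of 8, of the ZKSCAN genes 3 of 4, of the ZBTB genes, whose proteins join a BTB domain to zinc fingers, 20 of 32, and of the ZC3H genes, whose proteins carry CCCH fingers, 7 of 13. Their medians were -0.12, -0.06, -0.13, -0.08 and -0.04. Among all 10832 genes 5223 were lower, with a median of 0.01. At an unadjusted p under 0.05 stood 1 of 13, 1 of 8, 0 of 4, 3 of 32 and 1 of 13, against 8.52% of all genes. In the same order, 10, 3, 2, 22 and 7 genes were lower in FoEV against Co. In FeEV against Co these counts were 5, 2, 2, 17 and 5.

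Position in the genome was a property that the choice by symbol did not use. In the gene order of a later bovine assembly, ZNF genes were joined into a run where at most 3 protein-coding genes lay between them. Of the 207, 107 stood alone, 68 fell into 25 runs of 2 to 4 and 32 into 4 runs of 5 or more. In FoEV against FeEV, 26 of the 32 genes in long runs were lower in FoEV, with a median log2 fold change of -0.20, against 43 of 68 (median -0.07) in short runs and 58 of 107 (median -0.03) of the genes standing alone. None of the 32 had an unadjusted p under 0.05 in this comparison, against 8.52% of all genes. In FoEV against Co 19 of the 32 were lower (median -0.08) and in FeEV against Co 13 (median 0.03).

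The longest run, from ZNF146 to ZNF420, held 13 tested genes, of which 11 were lower in FoEV than in FeEV (median -0.23), 9 lower in FoEV than in Co (median -0.19) and 5 lower in FeEV than in Co (median 0.04). ZNF568 lies in this run, and it was one of the 2 genes there with a higher estimate in FoEV than in FeEV, the other being ZNF565 (0.39 ± 0.33). Its neighbours in the run, ZNF566 and ZNF829, were at -0.04 ± 0.19 and 0.02 ± 0.17 in FeEV against Co. In the run from ZNF154 to ZNF8 all 5 genes were higher in FeEV than in Co (median 0.33) and all 5 lower in FoEV than in FeEV (median -0.20), with ZNF274 the only one at an unadjusted p under 0.05, in FeEV against Co. The 7 genes from ZNF283 to ZNF180 included ZNF112, at -0.49 ± 0.19 in FoEV against Co, and 5 of the 7 were lower in FoEV than in Co (median -0.06), 6 lower in FeEV than in Co (median -0.04) and 5 lower in FoEV than in FeEV (median -0.02). The 7 genes from ZNF786 to ZNF746 divided into 3 higher and 4 lower in FoEV against Co.

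**Figure D5:**
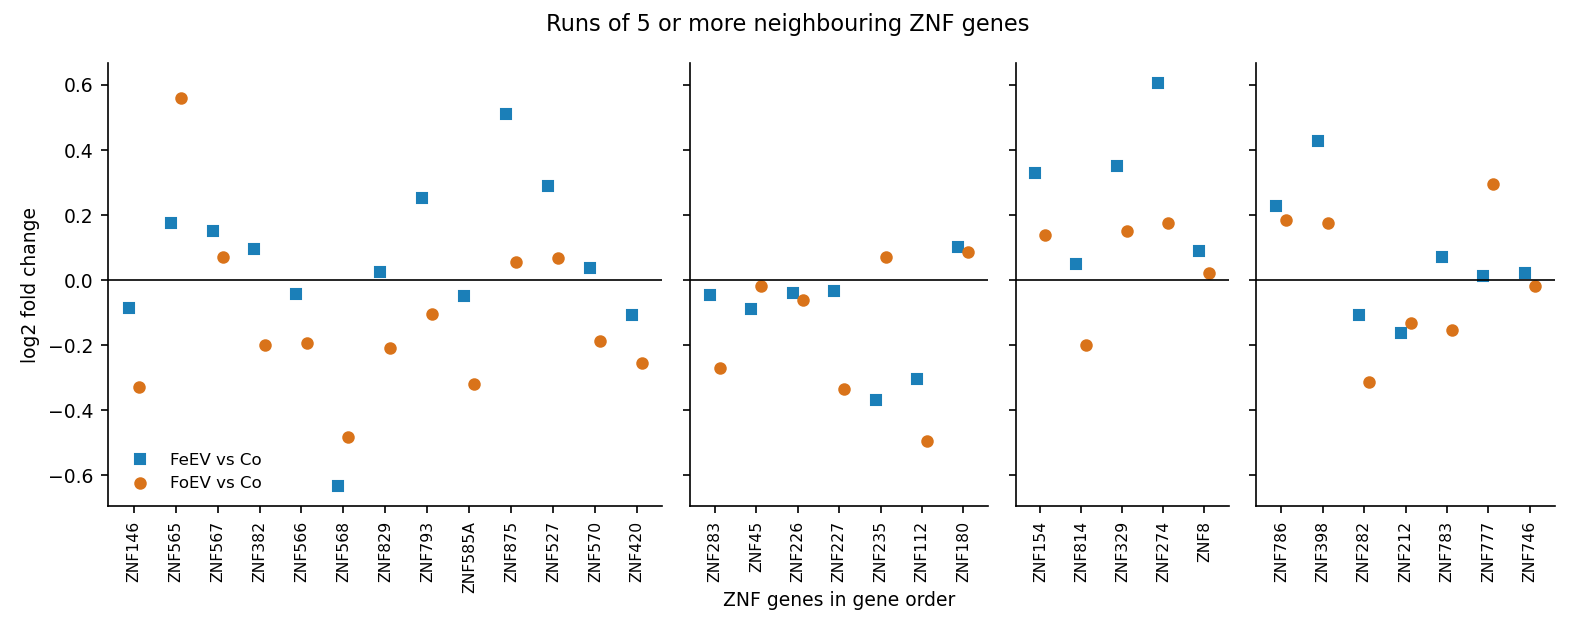
Log2 fold changes of FeEV against Co (squares) and FoEV against Co (circles) for the ZNF genes of the 4 runs of 5 or more neighbours, each panel 1 run and genes in their order along it. In 26 of the 32 genes the circle lies below the square; both rest on the same Co libraries, and ZNF568 in the first panel is low in both.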

How the data were processed

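Total RNA of embryo pools (1 ng per library) was sequenced by the authors, with 5 libraries per treatment. The submitters' processing notes name Trim Galore 0.4.3.1, HISAT2 2.1.0, featureCounts 1.6.3 and the assembly ARS-UCD1.2, and the paper names QuasR Qcount. The deposited tables hold raw counts per gene, for 34773 genes and for the 10832 that the authors kept after filtering. Day 7 is the labels' day of culture; the paper gives another. Symbols came from RefSeq by gene identifier (10709 of 10832 matched), on a later assembly used for names and gene order only. ZNF606, which the study lists as changed, has no entry there and so is not among the 207 ZNF genes. ZNF845 is listed there as ZNF761. Counts were tested with edgeR 4.0.16 in R 4.3.3 (TMM, glmQLFit with robust=TRUE, glmQLFTest, all 15 libraries in 1 fit with treatment only, Benjamini-Hochberg), checked on simulated data. SE is the size of the log2 fold change over the root of F. Depth was 2136713 to 4058887 reads per library. Alternatives were DESeq2 1.42.0, the robust likelihood ratio test, other scalings and filters, blocks, and leaving out libraries. Genes were named that the study lists, that had the 6 lowest p per direction and comparison, the 8 highest means, the 4 largest CVs of at least 10 CPM, or a listed role. The members and lists were chosen with earlier results of these data known. A class of ZNF genes by KRAB domain was not used here, as no protein sequences were at hand. Figures were drawn with matplotlib 3.10.9.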

Additional observations from a re-analysis of the deposited data

Results flagged for a closer look

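Among 102 groups of 5 libraries examined (32 ZNF genes and 2 measures of the family, in each treatment), 4 held a library far from the other 4 by Dixon's criterion, which chance gives in about 1 group in 20. Co 1 held 46.7 CPM of ZNF335, the other controls 34.1 to 37.3 CPM. Co 2 held 104.6 CPM of ZNF507, the others 70.6 to 80.3 CPM. Co 5 held 96.4 CPM of ZNF518B, the others 126 to 137 CPM. FoEV 2 gave 0.607% of its reads to the ZNF genes, the other FoEV libraries 0.502 to 0.530%. The cause was not tested for any of these.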

How the results depend on the processing

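The 3 counts of adjusted calls, 3 counts at an unadjusted p under 0.05 and 3 medians were recomputed under 9 alternatives and without each library in turn. By the criteria set, 159 of these values kept to the reported ones and 12 moved. A count was taken as kept if it stayed within a fixed ratio of the reported one. A median was taken as kept if it shifted by less than 0.0797, the spread of the ZNF genes' mean log2 CPM between libraries. That spread exceeds the size of all 3 reported medians, so a median that changed sign could count as kept. ZNF genes with an adjusted p under 0.05 in FoEV against Co numbered 0 in the report, 3 with DESeq2, 6 with the robust likelihood ratio test, 4 with no filter on low counts, 1 (ZNF292, adjusted p = 0.0476, quasi-likelihood test) with the replicate number as a block, and 0 to 1 without single libraries; all genes called there numbered 1, 138, 311 and 173 in the first 4. At an unadjusted p under 0.05, FeEV against Co gave 11, but 7 with library totals only, 6 with genes of at least 10 CPM and 7 to 15 without single libraries; the lowest was without FeEV 5. FoEV against FeEV gave 14, but 7 with genes of at least 10 CPM and 9 with the library number as a block, and 10 to 19 without single libraries. FoEV against Co gave 23, but 14 with the library number as a block and 15 to 26 without single libraries; the 15 was without Co 2, with 8 higher and 7 lower. The fewer genes tested lower the counts at 10 CPM; for the others the cause was not tested. The block of replicate numbers gave 23, 13 and 19 genes at an unadjusted p under 0.05 in FoEV against Co, FeEV against Co and FoEV against FeEV. Deviations from the treatment means correlated at 0.119 on average between libraries of the same title number (over 0.1 in 7 of 15 pairs, with 3 pairs of number 5 at 0.347 to 0.441) and at -0.0297 between others (16 of 60 pairs). As not every pair passed 0.1 and no source ties the numbers to a shared batch, they were not taken as pairing, though some sharing is possible. The best correlation of a library was with one of its own title number in 5 of 15 libraries. For the library number it was 5 of 14, and neither count was tested. Of the log2 fold changes of 32 named genes, 583 values kept their side of the threshold and direction and 14 passed it where the report's did not, all in FoEV against Co and for ZNF292, ZNF654, ZNF805, ZNF703, ZNF414 and ZNF75D. That of ZNF518A in FoEV against Co, -0.05, ran from -0.10 to 0.014 without single libraries, above 0 without Co 3 (0.014) and FoEV 4 (0.00076). Low counts limit the 69 genes under 10 CPM, whose median CV was 26.9%.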

Other observations

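The sample descriptions carry a library number that runs across treatments, and libraries with the same number had like shares of reads on the ZNF genes. Number 2 stood at 0.674% in Co and 0.632% in FeEV, number 3 at 0.573% in FeEV and 0.526% in FoEV, number 4 at 0.590% in Co, 0.594% in FeEV and 0.607% in FoEV, and number 5 at 0.561%, 0.575% and 0.530%. Number 6 stood at 0.460% in Co and 0.502% in FoEV, and number 7 at 0.514% in FeEV and 0.505% in FoEV. Over all genes, the deviations of libraries with the same library number from their treatment means correlated at 0.0809 on average, over 0.1 in 3 of 10 pairs. The TMM factors were 1.093 and 1.104 for number 2, 1.05, 1.05 and 1.06 for number 4, 0.884 and 0.891 for number 6 and 0.947 and 0.971 for number 7, but 0.947 and 1.08 for number 3 and 0.978 to 1.04 for number 5. What the number stands for is not given, and the likeness was noticed in these data and not tested. The fit with this number as a block is given among the alternatives.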
